A study of Mus musculus with 17 samples.

Results

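The genes described here are C3, Hp, Slpi, Chil1, Cp and F13a1, 6 of the 20227 mouse genes that could be measured on 17 arrays of 32D cells. They were picked because earlier results on the same arrays showed a large fall or a large spread in cells with mutant FLT3, so their differences and spread in those cells are described here without a test. FLT3, a tyrosine kinase receptor found on blood progenitors, binds FLT3 ligand, and an internal tandem duplication (ITD) makes it active without its ligand. 32D is an immortalised mouse cell line described as myeloblast-like, and it normally depends on interleukin 3 (IL-3). Exon arrays with probe sets for single exons measured total RNA from 5 groups.

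The parental group (2 arrays) was untransduced 32D cells with murine IL-3 at 1 ng/mL. The vector group (2) carried the empty retroviral vector pLXRN, and the wild-type group (2) carried human wild-type FLT3 in that vector. Both were selected with G418 and grown with the same IL-3. The ligand group (2) was the wild-type FLT3 line with FLT3 ligand at 20 ng/mL. That grouping follows the growth protocol, because the sample label alone could also mean cells transduced with the ligand. Whether those cultures kept IL-3 is not stated in so many words. The ITD group (9) was 9 lines with different human FLT3/ITD mutants, each on 1 array, grown without IL-3 and numbered here 1 to 9 in the order of the series. The effect of the mutant receptor and that of the absence of IL-3 therefore cannot be told apart. All transduced lines were mixed populations of many clones. Each control pair is titled as biological replicates. Nothing in the labels says whether a pair came from separate lines or from cultures of 1 line, so p-values measure only the spread between these samples, which may be technical.

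The acute-phase response is the change in secreted proteins that follows infection or injury. It is driven in the liver by interleukin 6, interleukin 1 and tumour necrosis factor, through STAT3, NF-kappaB and C/EBP factors, and myeloid cells make several of the same proteins themselves. C3 encodes the central complement component. Hp encodes haptoglobin, which binds free haemoglobin, and Cp encodes ceruloplasmin, a copper-carrying ferroxidase. Slpi encodes an inhibitor of neutrophil serine proteases. Chil1 encodes a chitinase-like lectin that neutrophils and macrophages secrete, and F13a1 encodes the A subunit of coagulation factor XIII, a transglutaminase that cross-links fibrin. Of the 6 genes, C3, Hp and Cp are acute-phase genes in the strict sense, so the set is called here by its members.

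The promoters are shown because C/EBP factors, whose own values are given further on, act on acute-phase genes. RefSeq windows from 250 bases before to 50 bases after a transcription start (GRCm38.p6) were at hand for 5 of the 6 genes, in 7 windows, and Hp was not matched. The letters TTNNGNAA (C/EBP-type), searched on both strands, occurred in 7 of these 7 windows and in 40.7% of all 32851 windows of that length. The letters TTCNNNGAA (STAT-type), also searched on both strands, occurred in 0 of the 7 and in 8.3% of all windows, so the motifs had no overlap here. The 100 bases before the start follow for the genes whose ITD arrays lay below every control array, 5′ to 3′ on the strand of the gene, with the TTNNGNAA matches of either strand in capitals. C3 is at chr17:57228137-57228236 (minus strand), Slpi at chr2:164356508-164356607 (minus strand) and Chil1 at chr1:134182056-134182155 (plus strand).
C3: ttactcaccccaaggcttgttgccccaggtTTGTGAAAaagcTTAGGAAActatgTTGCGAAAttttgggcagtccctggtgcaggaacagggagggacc
Slpi: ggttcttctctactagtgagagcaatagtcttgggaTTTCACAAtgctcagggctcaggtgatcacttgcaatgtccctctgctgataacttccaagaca
Chil1: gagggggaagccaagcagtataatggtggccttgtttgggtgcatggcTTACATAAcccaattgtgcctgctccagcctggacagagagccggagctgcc
In C3, 3 matches began 70, 58 and 45 bases before the start. In Slpi 1 match began 64 bases before the start within the printed stretch, and others began at 241 and 223. The match of Chil1 began at 52. The windows of Cp, which has 2 starts, overlap each other and held matches 206 and 70 bases before those starts. F13a1 also has 2 starts, with matches that began 33 bases before 1 of them and 12 bases after the other. The 7 windows are therefore not 7 independent promoters. A match describes letters only.

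C3, Hp, Slpi and Chil1 were high in all 4 control groups and lower in every ITD line. Values below are log2 signals, the mean over the used probe sets of a gene, and levels are not compared between genes. C3 stood at 10.47 and 10.35 in the parental arrays, 11.25 and 11.25 with the vector, 10.80 and 10.72 with wild-type FLT3 and 11.49 and 11.58 with ligand. The 9 ITD lines ran from 6.54 through a median of 8.51 to 9.22, and the highest ITD line lay 1.13 below the lowest control array. The order of the group means was ligand, vector, wild-type, parental, ITD, and no neighbours in it overlapped. The ITD mean of 8.27 ± 0.83 (SD, n = 9) differed by -2.54 ± 0.31 (SE) from the mean of the 3 control groups with IL-3 (parental, vector and wild-type), a 5.82-fold lower signal.

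Hp gave 9.66 and 9.85 on the parental arrays, 10.72 and 10.64 on the vector arrays, 9.36 and 9.27 with wild-type FLT3 and 9.83 and 9.88 with ligand. In the ITD lines it ran from 6.62 through 7.92 to 8.43, which left a gap of 0.83 to the nearest control array. Vector arrays were highest and ligand and parental arrays overlapped. Wild-type arrays were the lowest controls. The ITD mean was 7.84 ± 0.56 (SD, n = 9), or 4.22-fold below the IL-3 controls.

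Slpi read 9.71 and 9.54 on the parental arrays, 10.52 and 10.43 on the vector arrays, 9.81 and 9.76 with wild-type FLT3 and 10.13 and 9.99 with ligand. The ITD values were 6.99 at the lowest, 7.95 at the median and 8.58 at the highest, with a gap of 0.96 to the controls. The groups ranked vector, ligand, wild-type, parental, ITD without overlap. Slpi signal in the ITD lines, 7.90 ± 0.46 (SD, n = 9), was 4.19-fold below the IL-3 controls.

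Chil1 was 9.23 and 9.07 in the parental line, 9.63 and 9.58 in vector cells, 8.24 and 7.92 with wild-type FLT3 and 7.81 and 7.68 with ligand. It was 6.22, 6.49 and 7.47 at the lowest, median and highest ITD line. This gene already stood lower in both groups with the wild-type receptor, so its gap to the ITD lines was 0.44 from the IL-3 controls and 0.21 once the ligand arrays were included. Vector, parental, wild-type, ligand and ITD followed each other without overlap. The ITD mean of 6.59 ± 0.38 (SD, n = 9) was 5.12-fold below the IL-3 controls, 8.09-fold below the vector group and 2.23-fold below the ligand group.

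Every ITD array lay below every control array in 4 of the 6 genes. The same held for 0.934% of all genes, and 1.39% met it against the IL-3 controls alone. Since this contrast was used in picking the genes, nothing is read from that count. Against each control group in turn the ITD difference (log2 ± SE) ranged from -3.27 ± 0.45 (ligand) to -2.14 ± 0.45 (parental) for C3 and from -2.84 ± 0.31 (vector) to -1.47 ± 0.31 (wild-type) for Hp. It ranged from -2.58 ± 0.26 (vector) to -1.73 ± 0.26 (parental) for Slpi and from -3.02 ± 0.22 (vector) to -1.16 ± 0.22 (ligand) for Chil1. The size of the difference thus followed which control line was chosen, while its direction held against each of the 4.

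**Figure D1:**
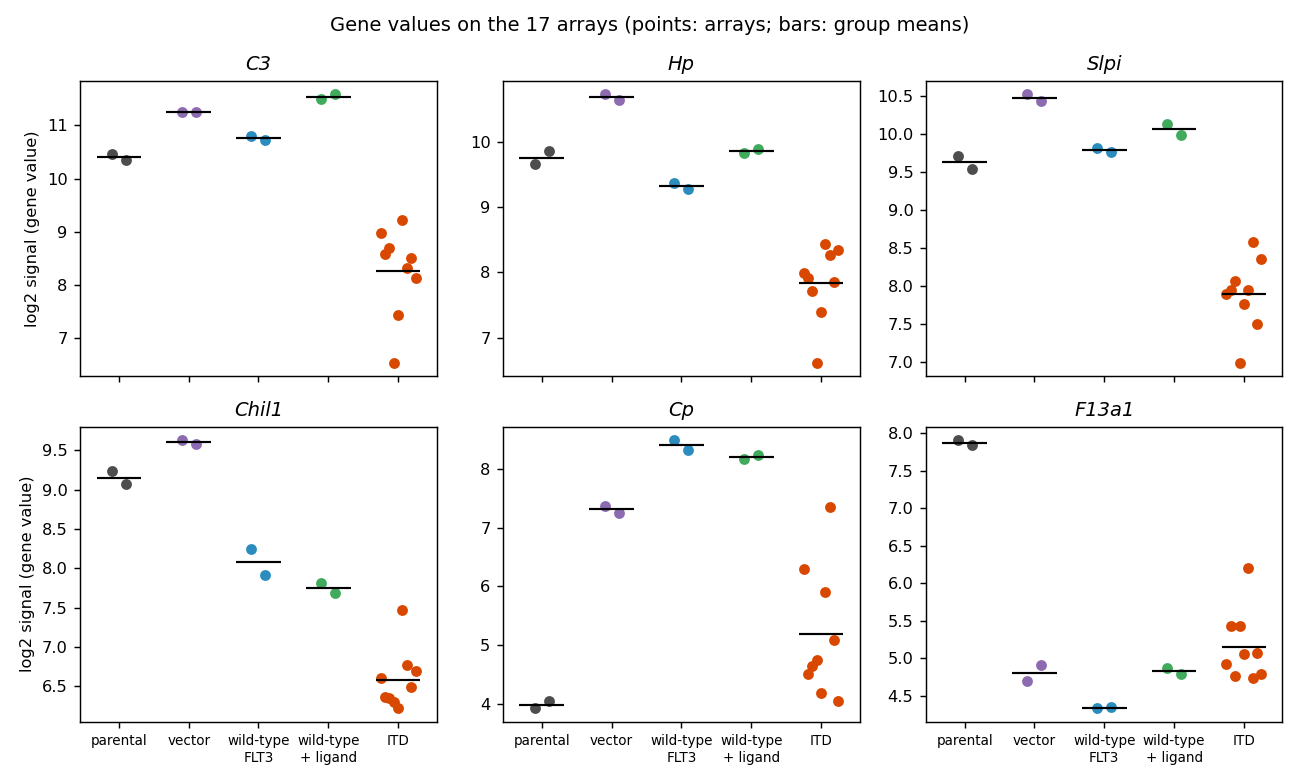
Log2 signal of the 6 genes on each array in the 5 groups (points, 2 arrays per control group and 9 ITD lines; bars are group means). In C3, Hp, Slpi and Chil1 the 9 ITD points lie below all 8 control points, whereas Cp is lowest in parental cells and F13a1 is highest there.

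Cp and F13a1 differed mainly among the controls. Cp gave 3.92 and 4.04 on the parental arrays, 7.37 and 7.26 on the vector arrays, 8.50 and 8.32 with wild-type FLT3 and 8.17 and 8.24 with ligand. Across the ITD lines it ran from 4.04 through 4.75 to 7.35, from the parental level into the vector level. The ITD mean of 5.20 ± 1.10 (SD, n = 9) was at least 9.27-fold below wild-type cells and 2.33-fold above parental cells. The first fold is a bound, because the lowest ITD lines lay below the level of 4.599 under which probe sets were left out as dim. The parental arrays lay below that level too, so the true size of the second fold is not known. By group means Cp was lower in the ITD lines than in 3 control groups and higher than in the parental line. Of the 9 ITD arrays, 0 lay below all controls.

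F13a1 gave 7.91 and 7.84 in the parental line but 4.69 and 4.91 in vector cells, 4.33 and 4.35 with wild-type FLT3 and 4.87 and 4.79 with ligand. The ITD lines ran from 4.73 through 5.06 to 6.20 and overlapped the vector and ligand arrays. The ITD mean of 5.15 ± 0.47 (SD, n = 9) was at least 6.59-fold below parental cells, a bound since the lower ITD lines were near background, while it differed from the vector group by 0.36 ± 0.28 (SE) and from the wild-type group by 0.81 ± 0.28 on the log2 scale. The lower value against the 3 IL-3 controls together, -0.52 ± 0.19, rested on the parental arrays, and the difference was 0.59 against the vector and wild-type groups alone.

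Flt3, which checks only for the presence of a transduced receptor, had mean values of 5.25 in the parental group, 5.19 in the vector group, 6.76 in the wild-type group, 6.89 with ligand and 7.16 in the ITD lines (7.08 to 7.32). The receptor was human and the arrays were mouse. Single used probe sets of Flt3 differed from -0.59 to 8.72 in wild-type minus vector. Markers of other myeloid cells also moved with the groups. In ITD minus IL-3 controls, 6 of 10 measured neutrophil markers were called lower and 1 higher, and 6 of 9 monocyte and macrophage markers were called lower. Over all genes 8.15% were called lower and 11.2% higher. Among these markers called lower, Camp and Ctss were not below every IL-3 control group. The ITD mean of Camp was 6.58 beside 6.38 in wild-type cells, and that of Ctss was 6.27 beside 5.23 in parental cells. The summed neutrophil signal was 14.26 to 14.68 (log2) in the controls and 12.33 to 13.69 in the ITD lines, and the monocyte and macrophage sum was 11.52 to 12.92 and 11.34 to 12.20. Of the myeloblast markers, which stand for the labelled cell type, 4 of 8 were called lower and all 8 were above 5 in at least 1 group. The ITD mean of Il3ra, called lower, was 9.17 beside 9.0 in wild-type cells. Every measured hepatocyte and lymphoid marker was also above 5 in at least 1 group. Passing that level therefore does not show that the myeloblast markers were expressed. Of 5 measured eosinophil markers, 1 was called higher. Their sums were 13.67 to 13.74 in parental, 11.77 to 11.79 in vector and 8.16 to 8.32 in wild-type arrays. The ligand arrays gave 8.31 to 8.47 and the ITD lines 10.38 to 13.23. Mast cell and basophil markers, 2 of 9 called lower and 2 higher, had sums of 14.47 to 14.62 in parental, 12.67 to 12.70 in vector, 11.13 to 11.17 in wild-type and 11.18 to 11.29 in ligand arrays and 11.78 to 13.37 in ITD lines. Erythroid and megakaryocyte markers, 3 of 7 called higher, had sums of 12.29 to 12.31, 11.28 to 11.32, 10.51 to 10.52, 10.68 to 10.78 and 11.28 to 12.54 in the same order. In these lists, as in F13a1, the parental arrays were the highest controls. Some calls in them depended on the control group. Mcpt8, called lower, had an ITD mean of 10.12 beside 9.83 in wild-type cells. Prss34, called higher, had an ITD mean of 10.83 beside 12.77 in parental cells. The eosinophil marker called higher, Epx, had an ITD mean of 11.67 beside 12.78 in parental cells. Hepatocyte markers, with 1 of 9 called higher, summed to 9.04 to 9.43 over all arrays. The part of other cell types in the results for the 6 genes was not tested, and in bulk RNA fewer cells of a type and less RNA per cell cannot be told apart.

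The spread among the ITD lines is described beside that within control pairs, which may be technical and is not a matched measure. C3 had an SD of 0.83 and a range of 2.68 over the 9 lines, against a pooled SD of 0.06 within control pairs, and 0.524% of all genes had a larger SD over the ITD lines. Cp had an SD of 1.10 and a range of 3.31, and 0.119% of genes had a larger SD. The median ITD line of Cp, 4.75, and the lowest line of F13a1, 4.73, lay near background, under a log2 signal of 5. The SD was 0.56 for Hp, 0.47 for F13a1, 0.46 for Slpi and 0.38 for Chil1. In the same order, 3.13%, 5.94%, 6.3% and 11.3% of all genes had a larger SD. The pair SD of the 5 genes other than C3 was 0.082 to 0.136. Over all genes the median SD was 0.20 over the ITD lines and 0.124 within pairs. These spreads take in differences between mutants, between transduced populations and between cultures, which 1 array per mutant cannot tell apart.

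No line was extreme in all 6 genes. Line 4 was lowest in C3 (6.54), Hp (6.62) and Slpi (6.99), and its C3 signal was 19.3-fold below the mean of the IL-3 controls. It also had the lowest summed neutrophil markers, 12.33, and the highest Flt3, 7.32. Line 5 was next to lowest in C3 (7.43), Hp (7.40) and the neutrophil sum (12.70), and it was lowest in Chil1 (6.22) and in the eosinophil sum (10.38). At the other end, line 6 was highest in C3 (9.22), Hp (8.43), Chil1 (7.47) and F13a1 (6.20), with a neutrophil sum of 13.62. Line 7 was highest in Slpi (8.58), Cp (7.35), the neutrophil sum (13.69) and the monocyte and macrophage sum (12.20). Whether these marker levels have a part in the spread was not tested. Without line 4 the SD of C3 was 0.55 and that of Hp 0.35, and without line 6 the SD of Chil1 was 0.20 and that of F13a1 0.28.

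**Figure D2:**
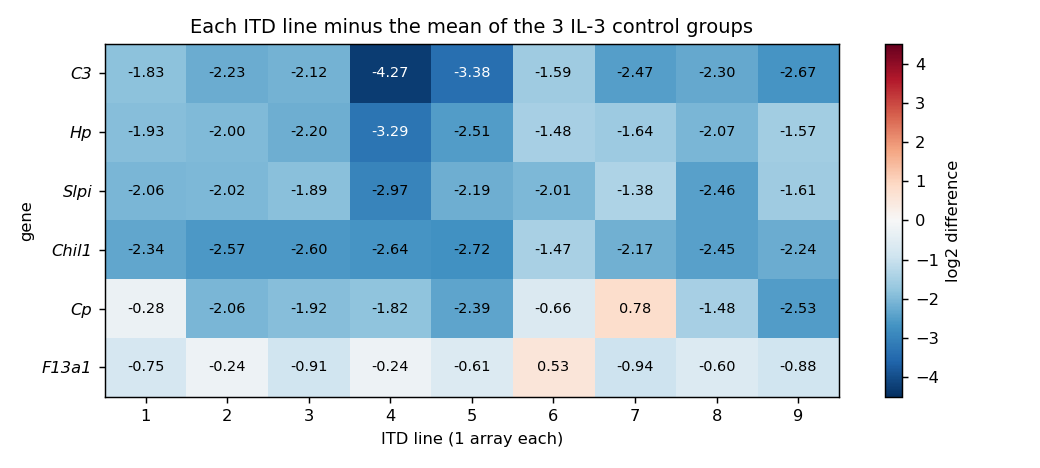
Log2 difference of each ITD line (columns, 1 array each) from the mean of the 3 IL-3 control groups for the 6 genes (rows), with blue for lower and red for higher. Line 4 is lowest in C3, Hp and Slpi, and the only values above 0 are Cp in line 7 (0.78) and F13a1 in line 6 (0.53).

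Few pairs of the 6 genes varied together over the ITD lines. The values are those the genes were picked on, so the permutation, which holds the 9 values of each gene fixed, concerns only how the lines are paired between genes. By exact permutation tests (two-sided, n = 9, 15 pairs, Benjamini-Hochberg adjusted), 0 pairs passed by Pearson correlation and 1 by Spearman correlation. That pair was Hp and Chil1, with rho = 0.95 (p = 0.000353, adjusted p = 0.00529, exact) and r = 0.70 (p = 0.0615, adjusted p = 0.307, exact), and r was 0.94 without lines 4 and 6, the lines farthest from the median of Hp. C3 and Hp gave r = 0.83 (p = 0.00991, adjusted p = 0.0743, exact) and rho = 0.53 (p = 0.148, adjusted p = 0.347, exact). The Pearson value rested on lines 4 and 5, since r was 0.00 without them. Hp and Slpi gave r = 0.82 (p = 0.00861, adjusted p = 0.0743, exact), rho = 0.68 (p = 0.0503, adjusted p = 0.347, exact) and r = 0.70 without lines 4 and 6. Cp had r between 0.00 and 0.51 with the other 5 genes and F13a1 between -0.38 and 0.56, none of which passed.

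The genes were picked on ITD differences, and the control groups can be compared with each other in contrasts that leave the ITD arrays out. The same control arrays enter both, however. For Cp and F13a1 the ITD difference depended on which control group stood high, so their control differences are described here without a test. For C3, Hp, Slpi and Chil1 the direction of the ITD difference held against each control group, but its size followed the group chosen. Their p-values below therefore come from arrays used in the picking and are not independent of it. Vector minus parental compares cells with and without transduction and selection, wild-type minus vector compares cells with and without the normal receptor, and the ligand group adds its stimulation. Wild-type minus vector shares the vector arrays with the former and the wild-type arrays with the latter. In all 6 genes the arrays did not overlap in any of the 3 comparisons, which held for 55%, 58% and 47.8% of all genes in vector minus parental, wild-type minus vector and ligand minus wild-type. The fit across all 17 arrays takes 8 of its 12 residual degrees of freedom from the ITD lines, where these genes spread widely. The SE of a C3 difference was therefore 0.58 in that fit and 0.061 in a fit of the 8 control arrays alone, and both are given.

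With the empty vector, Cp was at least 10.1-fold higher than in parental cells (log2 difference 3.34 ± 0.77 SE) and F13a1 at least 8.44-fold lower (-3.08 ± 0.36). Both folds are lower bounds, since Cp in parental cells (3.98) and F13a1 in vector cells (4.80) lay near background, taken as a log2 signal under 5. Over all genes, limma called 2.23% in this comparison, 1.27% higher and 0.959% lower. C3 (0.84), Hp (0.93), Slpi (0.86) and Chil1 (0.45) were higher on both vector arrays than on both parental arrays but were not called, with adjusted p of 0.559, 0.29, 0.229 and 0.51. In the fit of control arrays C3, Hp, Slpi and Chil1 were called higher, against 13.7% of all genes (6.2% higher and 7.5% lower). The adjusted p in that limma fit was 5.86e-05 for C3, 0.000117 for Hp, 0.000188 for Slpi and 0.029 for Chil1.

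With wild-type FLT3, Chil1 fell 2.88-fold below the vector group (-1.53 ± 0.29, adjusted p = 0.00344) and Hp fell 2.58-fold (-1.37 ± 0.40, adjusted p = 0.0445). Calls made up 8.22% of all genes here, 2.71% lower and 5.5% higher. The call of Hp was near the threshold and was lost without any 1 of the 8 control arrays (adjusted p 0.0573 to 0.196) or without ITD line 1, 2, 3 or 8 (0.0526 to 0.0559). That of Chil1 was lost without wild-type replicate 2 (adjusted p = 0.0505). Slpi (-0.69, adjusted p = 0.246) and C3 (-0.49, 0.717) were lower without a call, F13a1 differed by -0.45 and Cp by 1.09. In the fit of control arrays C3, Hp, Slpi and Chil1 were called lower, against 23% of all genes (7.59% lower and 15.4% higher).

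With FLT3 ligand, limma called none of C3, Hp, Slpi and Chil1 and 0% of all genes. Of all genes, 1555 had an unadjusted p under 0.05. C3 was higher by 0.77, Hp by 0.54, F13a1 by 0.49 and Slpi by 0.27, while Chil1 was lower by 0.33 and Cp by 0.20, with adjusted p of 0.805 for C3, 0.802 for Hp, 0.9 for Slpi and 0.837 for Chil1. The fit of control arrays called C3 (adjusted p = 0.000702) and Hp (0.00577) higher, against 5.68% of all genes (4.21% higher and 1.47% lower). In these 2 genes the ligand arrays thus stood above the wild-type arrays, while the ITD lines stood below both. The arrays of Slpi stood in the same order, but that limma fit did not call it (adjusted p = 0.0859). The place of the ITD lines in this order was used in picking the genes.

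**Figure D3:**
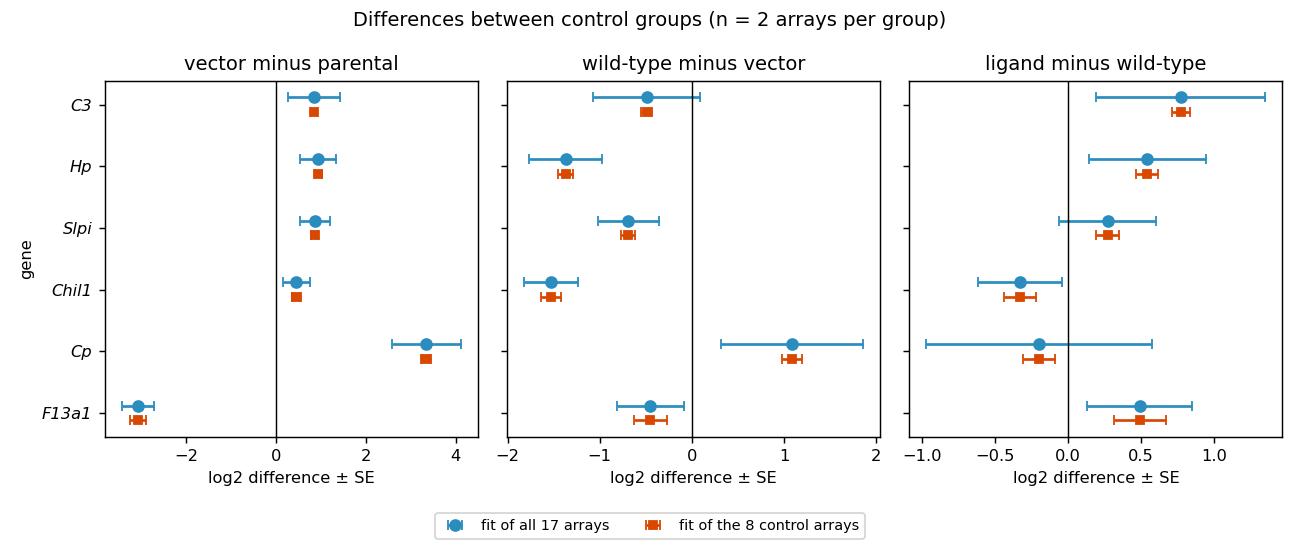
Log2 differences (points, bars are SE) of the 6 genes between control groups of 2 arrays each, from the fit of all 17 arrays and from the fit of the 8 control arrays. The differences are the same in both fits and the SE is smaller among the controls alone, for example 0.061 against 0.58 for C3.

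The gene values were shared by most probe sets of a gene. In ITD minus IL-3 controls all 43 used probe sets of C3 were lower, with a median of -2.60 and a range from -3.15 to -1.80, and in all 43 every ITD array lay below every IL-3 control array. All 7 of Hp (median -2.41), all 6 of Slpi (-2.04) and all 12 of Chil1 (-2.79) were lower too, and the ITD arrays lay apart in 6, 6 and 10 of them. Cp was lower in all 24 used probe sets (median -1.42), but in 0 of them did the ITD arrays lie below all IL-3 controls. F13a1 was lower in 10 of 11. The vector group was higher than parental cells in every used probe set of C3, Hp, Slpi, Chil1 and Cp and lower in all 11 of F13a1. With ligand, 43 of 43 probe sets of C3 were higher, as were 7 of 7 of Hp and 6 of 6 of Slpi. By contrast, 11 of 12 of Chil1 were lower. F13a1 was split, with 8 of 11 lower and 3 higher in wild-type minus vector and 7 higher and 4 lower with ligand. Probe sets with a 17-array mean of 4.599 or less were not used. The dimmest used and the brightest unused lay at 4.92 and 4.58 for Cp, which lost 7 of 31, at 4.81 and 4.47 for F13a1, which lost 9 of 20, and at 7.18 and 3.70 for C3, which lost 1 of 44.

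**Figure D4:**
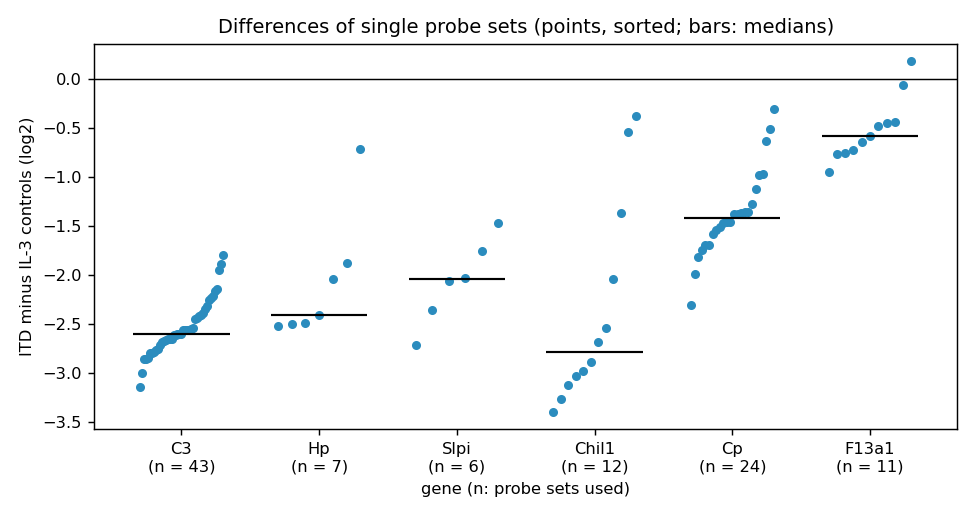
Log2 difference of the ITD lines from the IL-3 controls for every used probe set of the 6 genes (points, bars are medians). All probe sets of C3, Hp, Slpi, Chil1 and Cp lie below 0, and 10 of the 11 of F13a1 do.

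The genes with the most similar profile over the 17 arrays, by Pearson correlation, included several of myeloid cells. These correlations share the group structure of the arrays and are a description. Closest to Hp were Lyz1 (r = 0.981) and Lyz2 (0.976), which encode lysozymes, and Cd52 (0.966), a surface glycoprotein of leukocytes. Lyz2 was also closest to Chil1 (0.97), before Cyba (0.956), a subunit of the phagocyte oxidase, and Itm2b (0.946). C3 was followed by Fam234a (0.96), S100a9 (0.952), a calcium-binding protein of neutrophils, and Pilra (0.952), an inhibitory myeloid receptor. Slpi was followed by Plin3 (0.974), a lipid droplet protein, Hsd11b1 (0.968), which regenerates active glucocorticoid, and Kctd20 (0.967). Cp stood with Tnfrsf9 (0.942), Dgat2 (0.917) and Cyb5a (0.917), all highest in wild-type cells. F13a1 stood with Qprt (0.927), Plekha7 (0.926) and the mast cell chymase Cma1 (0.911), all highest in parental cells.

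Other genes of the same pathways were followed in 7 lists without the 6 genes. In ITD minus IL-3 controls 39 of 165 measured genes were called lower (23.6%) and 11 higher (6.67%), with a median difference of -0.115, beside 8.15% lower, 11.2% higher and a median of -0.011 over all genes (19.4% called in all). The lists were chosen with earlier results of these arrays known, so the counts describe them and are not independent evidence of a direction. The ITD mean lay below all 3 control means in 30 of the 39 and above all 3 in 8 of the 11. With each control line counted as 1 unit, 10 were called lower and 2 higher, namely Cd14 and Lcn2, C5ar1, Itgam and Masp2, Cebpd, Wfdc21, Mmp9, Grn and Ctsg, and F10 and F2r. In that fit 466 of all 20227 genes were called in either direction. All other ITD calls named in the following paragraphs were lost in that fit, among them every call for haem, iron and copper handling and for the chitinase family.

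Among acute-phase proteins, 5 of 23 fell and 1 rose (median -0.087). Cd14, the lipopolysaccharide co-receptor, fell by 1.30 ± 0.13 (SE, limma adjusted p = 4.63e-06), and the siderophore-binding Lcn2 fell by 1.29 ± 0.21 (adjusted p = 0.000364). The ITD mean of Cd14, 4.79, lay near background, so the size of its fall is a lower bound. Its control means were 5.14 in parental, 6.65 in vector and 6.48 in wild-type cells, so the fall was mainly against the transduced controls. The lipopolysaccharide-binding protein Lbp fell by 0.93, and Apcs, with 1 probe set, fell by 0.66. Saa1, Saa2 and Hamp were not measured here.

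Of the complement genes, 7 of 33 fell and 2 rose (median -0.166). The anaphylatoxin receptor C5ar1 fell by 1.08 ± 0.09 (adjusted p = 1.48e-06), and Itgam, the alpha chain of complement receptor CR3, fell by 0.94 ± 0.15. Properdin, the stabiliser of the C3 convertase encoded by Cfp, fell by 1.29 ± 0.17, yet its ITD mean of 8.32 was above the parental mean of 7.94. The lectin pathway protease gene Masp2 rose by 0.83 ± 0.14 (adjusted p = 0.000522).

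Regulators of the response had 10 of 32 genes lower and 1 higher (median -0.154). Cebpd, one of the C/EBP genes, fell by 1.28 ± 0.14 (adjusted p = 1.14e-05). Its means were 8.28 in parental, 8.63 in vector and 8.02 in wild-type cells and 7.02 in the ITD lines. Cebpa (-0.39 ± 0.08, adjusted p = 0.00425), Cebpb (-0.39 ± 0.09, 0.00691) and Cebpe (-0.42 ± 0.11, 0.0119) fell too, and Cebpg differed by 0.28 ± 0.13 (0.139). Cebpa had an ITD mean of 9.27, below the parental (9.98) and vector (9.91) means but above the wild-type mean of 9.08. Also lower were Nfkbia, the NF-kappaB inhibitor (-1.08 ± 0.20), Csf3r, the receptor of G-CSF (-0.97 ± 0.20), and Tnf (-0.91 ± 0.17), although the ITD mean of Tnf, 7.17, was above the parental 6.65.

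Genes of haem, iron and copper handling, the setting of Hp and Cp, had 4 of 27 lower and 2 higher (median -0.089). Lactoferrin, encoded by Ltf, fell by 1.42 ± 0.32 and haem oxygenase, encoded by Hmox1, by 0.66 ± 0.17, while the transferrin receptor gene Tfrc rose by 0.76 ± 0.19. The ITD mean of Hmox1, 8.24, was above the parental mean of 8.01. The transferrin gene Trf fell by 0.51 ± 0.17 (adjusted p = 0.0435).

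Among elastase-type proteases and inhibitors with a WAP domain, the family of Slpi, 6 of 14 fell and 1 rose (median -0.194). Granulin, encoded by Grn and a protein that Slpi is known to protect from cleavage, fell by 0.78 ± 0.06 (adjusted p = 6.57e-07). The WAP protein gene Wfdc21 fell by 1.02 ± 0.11 and the gelatinase gene Mmp9 by 0.80 ± 0.08. Cma1 was called lower (-0.86 ± 0.14), but this came from the parental arrays, where it was 8.31, and against vector and wild-type cells alone its difference was 0.02. Elane was not measured here.

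In the chitinase family with the receptors of Chil1, 3 of 12 fell and 1 rose (median -0.037), all by small amounts. Tmem219, a reported part of the Chil1 receptor, fell by 0.30 ± 0.06, Il13ra1 by 0.27 ± 0.08 and Ager by 0.26 ± 0.07, and Ovgp1 rose by 0.34 ± 0.11. Il13ra2 of the same list was not measured here, and Il13ra1, a different gene, is not taken here as a receptor of Chil1. Ovgp1 had an ITD mean of 6.86, below the wild-type mean of 7.23 and above the parental (6.27) and vector (6.06) means. Of coagulation, transglutaminase and fibrinolysis genes, the setting of F13a1, 4 of 28 fell and 3 rose (median -0.041). F10, encoding coagulation factor X, fell by 1.90 ± 0.12 (adjusted p = 8.53e-08), with means of 10.14 in parental, 8.37 in vector and 8.75 in wild-type cells and 7.19 in the ITD lines. Thrombospondin, encoded by Thbs1, fell by 1.24 ± 0.19 and the urokinase receptor gene Plaur by 0.97 ± 0.18. Thbs1 had an ITD mean of 5.65, at the parental mean of 5.64, so the lower value was against the transduced controls. The protease-activated receptor gene F2rl2 rose by 1.34 ± 0.21, with an ITD mean of 9.88 beside 9.96 in wild-type, 7.91 in parental and 7.75 in vector cells.

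**Figure D5:**
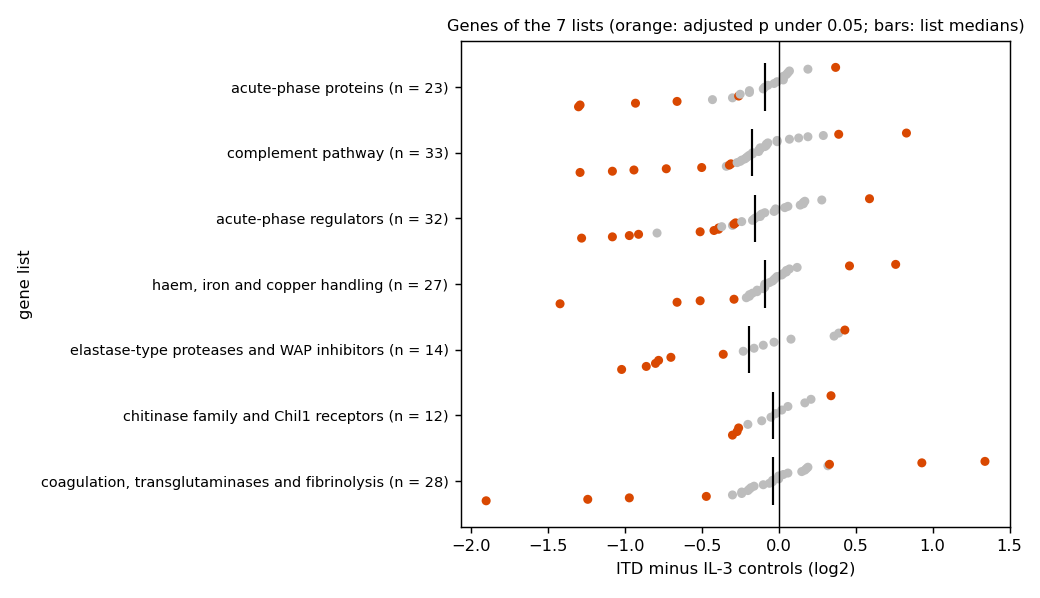
Log2 difference of the ITD lines from the IL-3 controls for each measured gene of the 7 pathway lists without the 6 genes (points, called genes in orange, bars are medians). The medians of the lists lie between -0.194 and -0.037, and the median of all genes is -0.011.

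Among the controls the counts of listed genes depended on the fit. In vector minus parental 6 of 165 rose (3.64%) and 4 fell (2.42%), beside 1.27% and 0.959% of all genes, and the fit of control arrays called 26 higher and 16 lower, beside 6.2% and 7.5% of all genes. The properdin gene Cfp rose by 2.65 ± 0.32 over parental cells, Thbs1 by 2.08 ± 0.37, Cd14 by 1.51 ± 0.25, Tnf by 1.50 ± 0.32 and Mmp9 by 1.09 ± 0.15. Cma1 fell by 2.46 ± 0.26, F10 by 1.76 ± 0.23, Cd55, an inhibitor of complement convertases, by 0.99 ± 0.18 and Orm1 by 0.94 ± 0.22.

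In wild-type minus vector 8 of 165 rose (4.85%) and 8 fell (4.85%), beside 5.5% and 2.71% of all genes, and the fit of control arrays called 27 higher and 28 lower, beside 15.4% and 7.59% of all genes. Among those that fell were the protease genes Prss57 (-1.34 ± 0.28) and Prtn3 (-1.19 ± 0.30), Il1b (-1.07 ± 0.31), the iron regulator Aco1 (-0.98 ± 0.14), Cebpa (-0.83 ± 0.16) and the adhesion receptor gene Cd44 (-0.73 ± 0.19). F2rl2 rose by 2.21 ± 0.41, F5 by 1.29 ± 0.22, Tnf by 1.29 ± 0.32, Ovgp1 by 1.17 ± 0.20, the copper transporter gene Atp7a by 0.94 ± 0.20 and Cr1l by 0.82 ± 0.15. With ligand, limma called 0 of the 165 at adjusted p under 0.05. The fit of control arrays called 9 higher and 11 lower, beside 4.21% and 1.47% of all genes.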

How the data were processed

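Total RNA of 17 cultures was measured on Affymetrix mouse exon arrays. The authors deposited log2 signals per probe set. Per the submitters' processing notes, Affymetrix Expression Console 1.1 and RMA were used. RMA is a method of background correction, normalization across arrays and summary of probes. The build and any probe set filter were not given in the sources used here. The table held 1256831 probe sets, with array medians of 4.63 to 4.69. Precision is limited by the few arrays.

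Of 325444 probe sets with a symbol in the platform annotation, 6684 with several were left out, and 931387 without one were not used here. Symbols were updated through RefSeq (18006 of 22296 current, 4227 changed, 63 unmatched and kept), and Chil1 carries an older name in the annotation. A gene value was the mean of its probe sets with a 17-array mean above the median of that mean, 4.599 (237584 probe sets, 20227 genes).

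Group means were fitted with limma 3.58.1 in R 4.3.3 (lmFit, eBayes with a trend, 12 residual and 4.49 prior degrees of freedom) and tested two-sided, with Benjamini-Hochberg adjustment over all genes and calls at adjusted p under 0.05. The code was tested on simulated data. Correlations over ITD lines used exact permutation over all orderings in Python with numpy 2.4.6, with ranks from scipy 1.17.1. Named were the 6 genes and Flt3, up to 4 called genes per list with the largest ITD difference, up to 2 per control comparison, all C/EBP genes and the 3 most correlated genes per member, passing over predicted models. Alternatives were other filters and summaries, renormalization, no trend, controls only, a replicate block, other control sets and leaving out each array. The members and lists were chosen with earlier results of these data known. Replicate numbers did not pair the control arrays (correlation of deviations -0.118 to 0.0917).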

Additional observations from a re-analysis of the deposited data

Results flagged for a closer look

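Of 49 genes examined, 6 had a highest ITD line that stood apart from the other 8 by more than Dixon's 95% critical value for 9 samples (0.493 of the range), which chance exceeds in about 1 in 20 groups. Chil1 was 7.47 in line 6, with the next line at 6.77. F13a1 was 6.20 in line 6, with the next at 5.43. Both were picked partly for their spread over these lines, so their values are a description and not a test. Line 7 stood apart in Nfkbia (9.78, next 8.74), Plaur (9.02, next 8.07), Thbs1 (6.96, next 5.71) and Ager (6.71, next 6.45).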

How the results depend on the processing

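Of the values that answer a comparison, counts of calls among controls depended most on the fit. Counts of members take in Cp and F13a1, whose control differences are a description, so nothing is read from those counts. With the 8 control arrays alone, vector minus parental called 2773 genes, 6 members, and 26 list genes higher and 16 lower, wild-type minus vector 4652, 5, 27 and 28, and ligand minus wild-type 1148, 2, 9 and 11. With a replicate block in that fit the numbers were 2418, 6, 24 and 16, then 4382, 5, 22 and 28, then 864, 2, 8 and 9, and the block changed no call of a member against that fit without it. With the ligand numbers crossed, chosen after seeing the data, ligand minus wild-type called 1571, 2, 10 and 13. Quantile normalization called 681 genes for the vector and 1 for the ligand. Members called were 1 for the vector under the stricter filter, where F13a1 had no probe set left, and 1 for wild-type with no filter and without a trend. Medians of probe sets left 5 list genes lower with wild-type.

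Leaving out 1 array moved genes called between 105 and 764 for the vector, 456 and 2116 for wild-type, 0 and 4 for ligand and 2675 and 4792 for ITD. Members called lay between 1 and 2 for the vector and 0 and 2 for wild-type. List genes called lay between 2 and 11 higher and 2 and 6 lower, 4 and 10 and 1 and 12, and, for ITD, 8 and 13 and 31 and 42. A lone array was taken to vary like the other groups. The SD over ITD lines ranged from 0.55 to 0.88 for C3, 0.35 to 0.60 for Hp, 0.33 to 0.49 for Slpi, 0.20 to 0.41 for Chil1, 0.80 to 1.18 for Cp and 0.28 to 0.50 for F13a1.

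With control lines as units ITD minus IL-3 controls called 466 genes, and 2 list genes higher and 10 lower. It called 2491 genes against parental and wild-type cells, and 7 list genes higher against vector and wild-type cells, where F13a1 (0.59) and Cma1 (0.02) turned and Cp was -2.67. Correlations near 0 turned for Hp and F13a1 (0.05 with no filter, 0.15 with medians, -0.65 to 0.31 without 1 line) and for Cp and F13a1 (-0.03 with quantile normalization, -0.37 to 0.39). Without 1 line they also turned for C3 and Slpi (-0.05 to 0.65), C3 and F13a1 (-0.49 to 0.47), Chil1 and F13a1 (-0.61 to 0.67) and Slpi and Cp (-0.10 to 0.58). Pairs past 0.05 were 2 under the stricter filter. Cebpa in vector minus parental ran from -0.22 to 0.08. The cause was not tested, and 2 arrays per control group limit every call.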
